A study of Mus musculus with 19 samples.

Results

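The respiratory chain genes of bone marrow lymphoid progenitors were examined as 99 rows of a table of 18607 genes, in 19 RNA-seq libraries from mice. The members were rows picked by symbol to cover complexes I to IV, ATP synthase and cytochrome c. Symbols were Nduf followed by a, b, c, s or v and a number, and Sdha to Sdhd. Further ones were those starting with Uqcr, Cox4 to Cox8 or Atp5, the matching mt- names, Cycs and Cyc1. Symbols of another form, such as Ndufab1, do not match. Of these, 86 are encoded in the nucleus and 13 in the mitochondrial genome. By complex, 42 rows belonged to complex I (35 nuclear and 7 mitochondrial), 4 to complex II, 10 to complex III (9 and 1), 20 to complex IV (17 and 3), 17 to ATP synthase (15 and 2) and 1 to cytochrome c. Of the remaining rows, 3 were pseudogenes (Atp5l-ps1, Atp5l-ps2 and Atp5l2-ps) and 2 (Atp5s and Atp5sl) carry the name of ATP synthase without being subunits of it.

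The study profiled common lymphoid progenitors, called ALP, beside 2 early stages of innate lymphoid cell (ILC) development, EILP and ILCp. All mice were C57BL/6, and all cells were sorted from bone marrow as lineage-low, Ly-6D-low and Kit-positive. The 7 ALP libraries came from Tcf7EGFP/+ mice, which carry a green fluorescent reporter at 1 allele of Tcf7, and were gated as IL-7Ra-positive and Flt3-high. The 7 EILP libraries came from the same genotype and were gated as CD122-low and GFP-high, with Thy-1.2 low and IL-7Ra at an intermediate or low level. The 5 ILCp libraries were gated as CD122-low and GFP-high with Thy-1.2, high IL-7Ra and a4b7. Of these, 3 came from Tcf7EGFP/+ mice and 2 (ILCp 4 and ILCp 5) from Plzf-cre-GFP/+ mice, so GFP in the gate reports a different gene in them. The labels used here give no age, sex or number of pooled animals, and do not say that replicate libraries stem from different mice. The p-values therefore measure the spread between these libraries only, which may be technical. The labels give 5 batches. Batch 3 holds only EILP 3 and EILP 4, and batch 5 holds no ILCp.

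Electrons enter the chain at complex I (from NADH) and complex II (from succinate), pass through complex III and cytochrome c to oxygen at complex IV, and the proton gradient they build drives ATP synthase. Some subunits of complexes I, III and IV and of ATP synthase are made from mitochondrial DNA, which is transcribed as long transcripts from both strands and then cut. All other subunits, complex II and cytochrome c come from nuclear genes, and several subunits of complex IV have alternative isoforms used in particular tissues, such as muscle or testis.

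Values are the deposited log2 CPM, which already have the batches evened out. Differences are log2 fold changes ± SE from limma over all genes with batch as a term. Some genes hold the same value in several libraries of a batch, such as mt-Cytb at 11.172 in ALP 1, EILP 1 and ILCp 1. Scaling to the library total alone would not give such ties. Sums and percentages of CPM below are therefore sums of deposited values and not shares of reads. The evening out of batches kept the group means. EILP 3 and EILP 4 are alone in batch 3, so for each gene their mean equals the EILP mean. For Cox6a2 they stood at 3.248 and 3.855, beside an EILP mean of 3.551 log2 CPM. With batch as a term, these 2 libraries inform the errors only. Evening out can also narrow the ranges and SDs within groups. Ranges, SDs and statements of no overlap below carry both effects. Adjusted p-values are Benjamini-Hochberg values over all 18607 genes, with a threshold of 0.05. The sums of CPM per library ran from 908573 to 1035200. Read depth is unknown. The libraries also held transcripts listed as markers of other cell types, in amounts that differed within groups. Whether they came from such cells was not tested. The 11 neutrophil and myeloid genes summed to 41812 CPM in EILP 2 and to 1635 to 7123 CPM in the other EILP libraries, and the 6 eosinophil genes summed to 11069 CPM in EILP 6. Of the marker lists, 4 of 9 bone stroma genes rose in EILP against ALP and 2 of 9 fell from EILP to ILCp; 3 of 11 neutrophil and 4 of 6 eosinophil genes fell from EILP to ILCp, and 1 of 11 neutrophil genes fell in ILCp against ALP. From ALP to ILCp 2 of 8 T cell genes rose and 2 of 8 B cell genes fell, 1 of the 8 B cell genes fell from ALP to EILP, and none of 8 erythroid genes passed in any of the 3 comparisons (limma adjusted p; 4, 0 and 0 at an unadjusted p under 0.05). Of all genes, 2.25% rose and 2.79% fell from ALP to EILP, and 1.76% rose and 1.46% fell from EILP to ILCp. From ALP to ILCp, 3.86% rose and 4.39% fell. A single gene of a list, such as 1 of 11, does not stand apart from these shares. In bulk libraries, a change in the make-up of the sorted cells and a change of RNA within a cell cannot be told apart.

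The promoters of 3 genes that fell and carry a motif of known respiratory gene regulators are shown here, with 1 that rose from ALP to EILP and fell in ILCp and carries none. Each runs from 250 bases before to 50 bases after the RefSeq start (GRCm38.p6), 5′ to 3′ on the gene's strand. Capitals mark the motif: that of NRF1 (GCGCA, any base, GCGC) in Atp5g2, and CCGGAAG for GABPA on the plus strand in Sdhb and on the minus strand in Ndufs8. Atp5g2 (c subunit of the ATP synthase ring) lies at chr15:102670998-102671297 on the minus strand.
Atp5g2: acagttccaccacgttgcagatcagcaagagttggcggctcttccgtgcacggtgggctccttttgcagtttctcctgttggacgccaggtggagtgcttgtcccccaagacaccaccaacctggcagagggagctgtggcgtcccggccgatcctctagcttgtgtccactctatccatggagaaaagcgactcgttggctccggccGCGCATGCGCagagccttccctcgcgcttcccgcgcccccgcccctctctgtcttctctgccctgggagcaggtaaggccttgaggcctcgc
Sdhb (iron-sulfur subunit of complex II) lies at chr4:140961021-140961320 on the plus strand.
Sdhb: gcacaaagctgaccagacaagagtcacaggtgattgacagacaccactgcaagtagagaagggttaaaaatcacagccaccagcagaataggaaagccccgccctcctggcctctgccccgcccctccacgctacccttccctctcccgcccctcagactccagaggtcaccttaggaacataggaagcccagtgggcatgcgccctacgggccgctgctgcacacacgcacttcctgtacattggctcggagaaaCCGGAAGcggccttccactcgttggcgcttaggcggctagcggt
Ndufs8 (iron-sulfur core subunit of complex I) lies at chr19:3912725-3913024 on the minus strand.
Ndufs8: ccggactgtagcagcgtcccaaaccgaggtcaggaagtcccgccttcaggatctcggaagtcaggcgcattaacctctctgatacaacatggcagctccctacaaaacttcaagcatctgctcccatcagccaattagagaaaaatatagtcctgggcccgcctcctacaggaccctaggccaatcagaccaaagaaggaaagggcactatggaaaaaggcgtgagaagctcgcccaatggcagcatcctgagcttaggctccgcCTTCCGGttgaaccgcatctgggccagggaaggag
Atp5g1 (a second gene for the same c subunit) lies at chr11:96075582-96075881 on the minus strand.
Atp5g1: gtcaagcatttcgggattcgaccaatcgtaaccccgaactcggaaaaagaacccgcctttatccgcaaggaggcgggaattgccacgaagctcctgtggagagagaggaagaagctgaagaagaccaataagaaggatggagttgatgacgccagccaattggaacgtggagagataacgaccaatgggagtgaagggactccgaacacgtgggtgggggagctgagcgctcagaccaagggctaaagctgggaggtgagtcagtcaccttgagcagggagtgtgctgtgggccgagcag
RefSeq gave 74 promoters for 68 of the members. The NRF1 motif, searched on both strands, was in 18 of the 74 (24.3%) against 4.60% of all 32851 promoters in the table. The GABPA motif was in 16 (21.6% against 8.86%), and AANATGGCG, a motif of YY1, was in 12 (16.2% against 2.38%). At least 1 of the 3 motifs was in 40 of the 74 (54.1% against 14.2%). Of the members that passed a test below, Ndufb2, Ndufb8, Cycs, Cox5a, Cox6b2, Cox7a2l and Atp5g1 held none of these letters in their window, and Cox6a2 and Cox4i1 had no entry. A match is a string of letters and not a binding site.

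Across the 99 members, levels per kilobase of exon were highest for 3 mitochondrial genes. The mean over the 3 groups was 11.13 log2 CPM per kb for mt-Co1, which encodes the catalytic core subunit of complex IV, 10.98 for mt-Cytb, the cytochrome b of complex III, and 10.58 for mt-Nd1, a membrane subunit of complex I. The nuclear members followed with Atp5o at 8.92, Atp5b at 8.74, Cox8a at 8.73, Atp5a1 at 8.72 and Cox6a1 at 8.68 log2 CPM per kb. Atp5o shares 89.8% of its 50-letter windows with other annotated genes, so its level is uncertain. Over the 80 nuclear members with a mean of at least 2 log2 CPM, the median per complex was 7.11 log2 CPM per kb for complex II, 6.98 for complex III, 6.96 for ATP synthase, 6.92 for complex IV and 6.27 for complex I. Exon lengths join all annotated transcripts of a gene (GENCODE M21), which lowers the level of genes with long minor transcripts, such as Ndufb2 at 2.63 log2 CPM per kb over 5.63 kb.

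From ALP to EILP and from ALP to ILCp, members passed at about the share of all genes that passed in either direction. Those that passed toward ILCp were all lower there. From ALP to EILP, 5 of 99 members passed the threshold, 3 higher and 2 lower, where 5.05% of all genes passed, 2.25% higher and 2.79% lower (limma adjusted p). From EILP to ILCp, 6 passed and all 6 were lower, where 3.21% of all genes passed, 1.76% higher and 1.46% lower. From ALP to ILCp, 8 passed and all 8 were lower, where 8.24% of all genes passed, 3.86% higher and 4.39% lower. In all, 12 members passed in at least 1 comparison: 6 in 1 comparison, 5 in 2, and Cox6a2 in all 3. At an unadjusted p under 0.05, 14, 38 and 26 members lay past the line in these comparisons, beside 3249, 3097 and 3888 of all genes. The comparisons share libraries, so their counts are not independent.

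**Figure D1:**
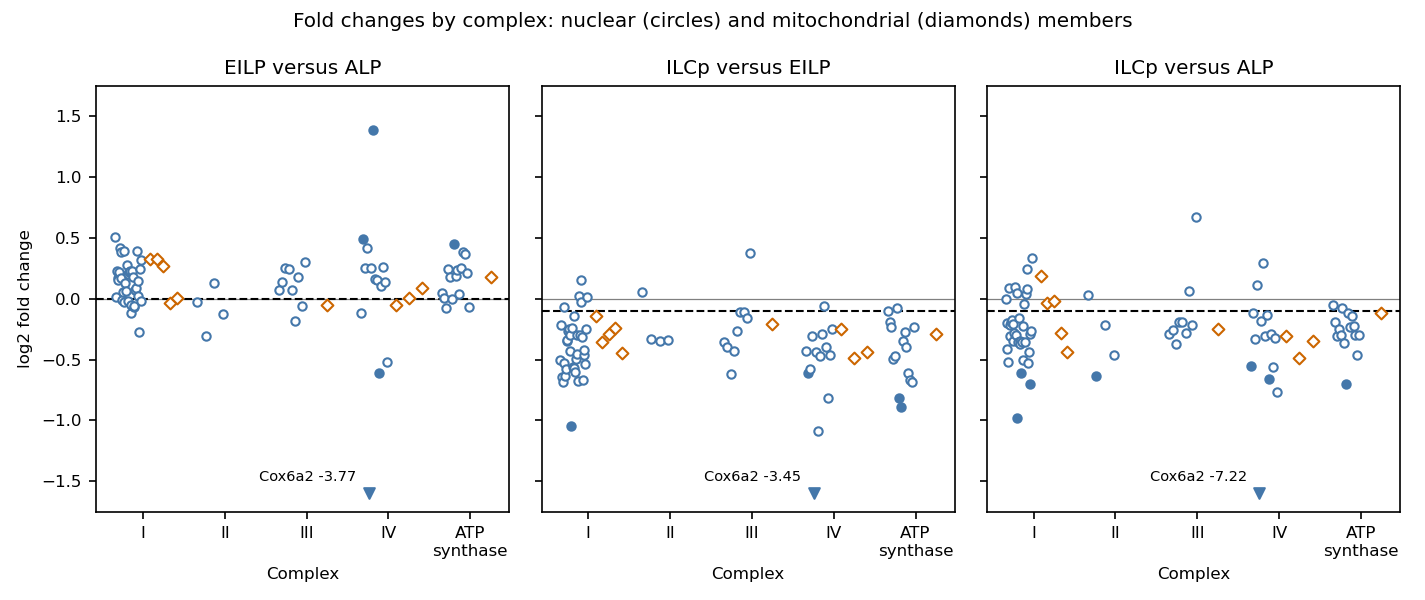
Log2 fold change (vertical axis) of the members with a mean of at least 2 log2 CPM in the 5 complexes (horizontal axis), for the 3 comparisons. Circles are nuclear and diamonds mitochondrial genes, filled where the limma adjusted p was below 0.05, the dashed line is the median of all genes past the same minimum, and the triangle marks Cox6a2, which lies off the scale. In the middle panel all but 5 nuclear members lie below 0, and no diamond is filled in any panel.

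The counts of calls moved with the libraries and settings used, for which the share of all genes that passed was not computed. With only the EILP and ILCp libraries in the fit, 0 members passed from EILP to ILCp (36 at an unadjusted p under 0.05), and 0 passed without the mean-variance trend (25 unadjusted) or without batch 4 (14 unadjusted), which holds 3 of the 5 ILCp libraries. From ALP to EILP, 1 member, Cox6a2, still passed without EILP 6, and from ALP to ILCp 2 passed without ALP 4.

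The shift of the nuclear members as a whole can be read from medians. From ALP to EILP the median log2 fold change of the 80 nuclear members was 0.15, beside −0.0007 for the 9351 genes past the same minimum, and 23 of the 80 (28.8%) had a negative value, beside 50.1% of those genes. From EILP to ILCp it was −0.40, beside −0.10, and 75 of 80 (93.8%) were negative, beside 56.1%. From ALP to ILCp it was −0.28, beside −0.10, and 68 of 80 (85%) were negative, beside 56.3%. These are descriptions, since subunits of 1 library move together. Within batches, the difference in the median level between EILP and ALP was 0.31 in batch 5 and −0.03, −0.08 and 0.02 in batches 1, 2 and 4. Between ILCp and EILP it was 0.09 in batch 1, −0.27 in batch 2 and −0.56 in batch 4, and between ILCp and ALP 0.06, −0.35 and −0.53. Batch 1, with 1 library per group, thus did not share the direction in the last 2 comparisons.

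Single libraries set the spread of the nuclear members. The median level of the 80, in log2 CPM ± SD over libraries, was 7.27 ± 0.20 for ALP (n = 7), 7.36 ± 0.13 for EILP (n = 7) and 6.99 ± 0.17 for ILCp (n = 5). ALP 5 held the lowest ALP value for 61 of the 80 members, and ALP 6 the highest for 42. EILP 6, the library with the most eosinophil transcripts, held the highest EILP value for 47, and ILCp 1 the highest ILCp value for 49. The lowest EILP value was in EILP 1 for 36 members and in EILP 2 for 29. The lowest ILCp value was in ILCp 4 for 34 and in ILCp 5 for 21, the Plzf-cre-GFP/+ libraries. Removal of batch makes deviations within a batch cancel out, so these places are not independent. Over all genes past the minimum, the deviations of EILP 1 and ILCp 1, both of batch 1, correlated at −0.64. The median level averaged 7.06 log2 CPM in the Tcf7EGFP/+ ILCp libraries and 6.88 in the Plzf-cre-GFP/+ ones. The part of other cell types or of the reporter strain in these levels was not tested. The median SD of a member was 0.28 in ALP, 0.16 in EILP and 0.22 in ILCp, on the log2 scale.

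In complex I, which takes electrons from NADH, 3 nuclear members passed, all lower in ILCp. Ndufs8 (chr19:3908863-3912774), which carries iron-sulfur clusters of the arm that reaches into the matrix, ran from 7.06 to 7.97 log2 CPM in ALP with a median of 7.56, from 7.12 to 7.38 in EILP with a median of 7.27, and was 6.86, 6.86, 6.68, 6.999 and 6.82 in ILCp 1 to 5. All ILCp libraries lay below all ALP and EILP libraries. Its log2 fold change from ALP to ILCp was −0.70 ± 0.16 (limma adjusted p = 0.0111), and the call held when any 1 library was left out. From ALP to EILP it was −0.28 (adjusted p = 0.319).

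Ndufb2, an accessory subunit of the membrane arm (chr6:39592574-39603382), ran from 5.01 to 5.87 log2 CPM in ALP with a median of 5.39, from 5.32 to 5.68 in EILP with a median of 5.51, and was 4.54, 4.15, 4.60, 4.10 and 4.86 in ILCp. The ILCp libraries again lay below all others. It fell by 1.05 ± 0.27 from EILP to ILCp (limma adjusted p = 0.0434) and by 0.98 ± 0.26 from ALP to ILCp (adjusted p = 0.0256). The first call was lost in 11 of the 19 fits that left out 1 library, and the second without ALP 4 (adjusted p = 0.0570) or ILCp 2 (0.124). Ndufb8, another accessory subunit of that arm (chr19:44548572-44555440), averaged 7.73 ± 0.22 in ALP, 7.62 ± 0.17 in EILP and 7.12 ± 0.17 in ILCp. From ALP to ILCp it fell by 0.61 ± 0.16 (limma adjusted p = 0.0252). That call was lost without ALP 1 (adjusted p = 0.0565), ALP 4 (0.103), EILP 5 (0.0510) or ILCp 2 (0.101).

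Over the 35 nuclear members of complex I the median log2 fold change was 0.16 from ALP to EILP, −0.42 from EILP to ILCp and −0.28 from ALP to ILCp. From EILP to ILCp 32 of the 35 were negative. The exceptions were Ndufs4 (0.15), Ndufv3 (0.02) and Ndufs1 (0.02), subunits of the matrix arm, none of which passed. From ALP to EILP the smallest p of the complex belonged to Ndufa1, an accessory subunit, at 0.51 ± 0.19 (limma adjusted p = 0.157).

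Complex II, succinate dehydrogenase, is also an enzyme of the citric acid cycle and is wholly nuclear. Its iron-sulfur subunit Sdhb (chr4:140961203-140979193) ran from 8.26 to 8.83 log2 CPM in ALP with a median of 8.64, from 8.11 to 8.44 in EILP with a median of 8.24, and was 8.21, 7.58, 8.17, 7.995 and 7.73 in ILCp. The ILCp libraries lay below all ALP libraries and overlapped the EILP libraries. Sdhb fell by 0.63 ± 0.16 from ALP to ILCp (limma adjusted p = 0.0186), a call lost without ALP 4 (adjusted p = 0.0808) or ILCp 2 (0.156). The steps from ALP to EILP (−0.30, adjusted p = 0.263) and from EILP to ILCp (−0.33, adjusted p = 0.321) did not pass. The flavoprotein subunit Sdha gave 0.04 ± 0.10 from ALP to ILCp, and the membrane anchors Sdhc and Sdhd gave −0.22 and −0.46; none of these passed. The difference between Sdha and Sdhb was not tested.

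No member of complex III passed in any of the 3 comparisons, with 0, 3 and 1 of its 10 members at an unadjusted p under 0.05. Of all genes, 5.05%, 3.21% and 8.24% passed, and 10 members are too few to tell 0 calls from those shares. Uqcrq, a small subunit of the complex, had the highest log2 fold change of the 80 nuclear members in both comparisons with ILCp. It averaged 6.99 ± 0.35 log2 CPM in ALP, 7.29 ± 0.26 in EILP and 7.67 ± 0.46 in ILCp. Its log2 fold change was 0.67 ± 0.26 from ALP to ILCp (limma adjusted p = 0.134). Uqcr11, another small subunit, went the other way, at −0.62 ± 0.22 from EILP to ILCp (adjusted p = 0.150).

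Cytochrome c, the mobile carrier between complexes III and IV, is made from Cycs (chr6:50562563-50566538). Cycs ran from 7.34 to 8.22 log2 CPM in ALP with a median of 7.62, from 7.78 to 8.14 in EILP with a median of 7.99, and was 7.40, 6.83, 7.36, 7.36 and 6.97 in ILCp. ILCp lay below all EILP libraries and overlapped ALP. From EILP to ILCp it fell by 0.77 ± 0.20 (limma adjusted p = 0.0436). Leaving out single libraries, ALP ones included, ended this call in 17 of 19 fits, with adjusted p up to 0.184 without ILCp 2 and a fold change of −0.59 there. Cycs shares 26.1% of its windows with other annotated genes.

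Complex IV held the largest differences, in its alternative isoforms. Cox6a2 encodes the heart and skeletal muscle form of subunit 6A (chr7:128205435-128206387, minus strand), and Cox6a1 the form used in most tissues. Cox6a2 ran from 6.62 to 8.52 log2 CPM in ALP with a median of 7.19, from 1.29 to 4.96 in EILP with a median of 3.81, and was −0.37, 3.18, −0.15, −1.03 and −1.13 in ILCp. ALP lay above all other libraries without overlap. All ILCp libraries except ILCp 2 lay below EILP, and ILCp 2 exceeded EILP 2, the only EILP library of its batch.

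Cox6a2 fell by 3.77 ± 0.75 from ALP to EILP (limma adjusted p = 0.00607), which is 13.6-fold, and by 7.22 ± 0.86 from ALP to ILCp (adjusted p = 5.33e-05), which is 149-fold. The second call held in the 19 fits that left out 1 library and in all 17 other settings tried, and the first was lost only without ALP 7 and EILP 2 together (−2.77, adjusted p = 0.0637). The sizes rested on single libraries. The first was 7.53-fold without EILP 2. The second was 498-fold without ILCp 2 (−8.96; the plain difference of means was −7.99), 96.6-fold without ALP 4, 89-fold without the Plzf-cre-GFP/+ libraries and 43.1-fold without batch 4. The further step from EILP to ILCp was −3.45 ± 0.89 (adjusted p = 0.0463). That step was lost in 17 of 19 fits without 1 library. It was −2.63 without EILP 5 (adjusted p = 0.243), and of these fits held only without EILP 2 (−4.29) or ILCp 2 (−5.01). Its smallest size over all settings was −1.52, without batch 4 (adjusted p = 0.596). It was −2.67 without the Plzf-cre-GFP/+ libraries (0.208), and within batch 2 the sign was opposite, at 1.90. ILCp averaged 0.89 log2 CPM in the Tcf7EGFP/+ libraries and −1.08 in the Plzf-cre-GFP/+ ones.

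Per kilobase, Cox6a2 stood at 7.88 log2 CPM per kb in ALP, near Cox6a1 at 8.50, whereas in EILP the pair stood at 4.11 and 8.92 and in ILCp at 0.66 and 8.61. Cox6a1 itself averaged 7.99 ± 0.21 log2 CPM in ALP, 8.41 ± 0.18 in EILP and 8.10 ± 0.09 in ILCp and passed in none of the comparisons (limma adjusted p = 0.0686 from ALP to EILP; median centring moved this one past the threshold). Most listed transcripts of plasmacytoid dendritic cells moved with Cox6a2. Of 5 listed genes in the table, 4 fell from ALP to EILP and 3 from ALP to ILCp (limma adjusted p). Of all genes, 2.79% and 4.39% fell in these 2 comparisons. Their summed level was 146 to 602 CPM in ALP, 52.2 to 85.4 in EILP and 54.3 to 219 in ILCp. Siglech, a defining marker, averaged 5.67 log2 CPM in ALP, −2.78 in EILP and −4.43 in ILCp, Cd300c 1.29, −4.52 and −5.10, and Bst2 7.07, 5.88 and 5.63. Ccr9 was at 5.22, −2.59 and 3.26, and Pacsin1 at 0.83, 1.58 and 1.96, lowest in ALP. Within ALP, ALP 4 had the highest Cox6a2 (8.52) and the lowest sum (146 CPM), while Siglech was lowest in ALP 5 (3.77). ALP 4 is the only ALP library of batch 4, so its place within ALP also depends on the removal of batch. The part of such cells in the Cox6a2 result was not tested.

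**Figure D2:**
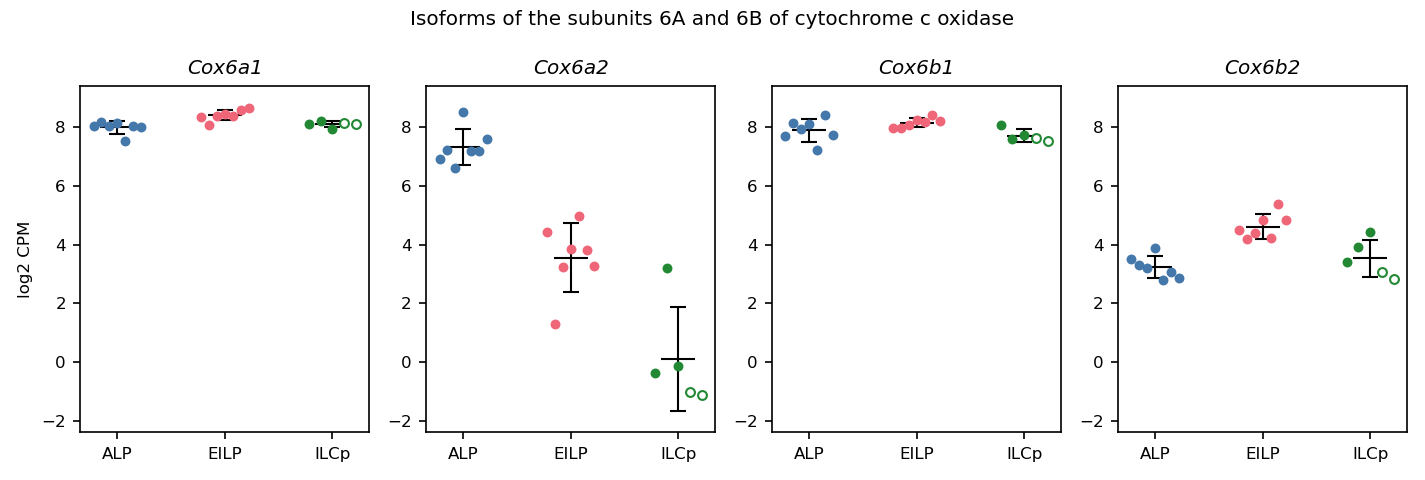
Level in log2 CPM (vertical axis) of both isoforms of subunits 6A and 6B in each library by group. Points are libraries (open: Plzf-cre-GFP/+), the bar is the mean and the whiskers are 1 SD; Cox6a2 drops from a median of 7.19 in ALP to 3.81 in EILP and −0.37 in ILCp, while Cox6a1 stays between 7.53 and 8.65.

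Cox6b2 encodes the testis form of subunit 6B and Cox6b1 the common form. Cox6b2 ran from 2.78 to 3.87 log2 CPM in ALP with a median of 3.19, from 4.17 to 5.37 in EILP with a median of 4.48, and was 3.39, 3.91, 4.42, 3.08 and 2.82 in ILCp. EILP lay above ALP without overlap, and ILCp overlapped both. It rose by 1.39 ± 0.37 from ALP to EILP (limma adjusted p = 0.0400), and the value was 1.15 without EILP 6 (adjusted p = 0.116), the library with the highest level; 8 of 19 such fits lost the call. From EILP to ILCp it was −1.09 ± 0.44 (adjusted p = 0.214). Cox6b1 averaged 7.89 ± 0.39, 8.15 ± 0.15 and 7.71 ± 0.21 in ALP, EILP and ILCp and did not pass.

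Cox7a2l (chr17:83501918-83517330), known as a factor that joins complexes III and IV into supercomplexes, ran from 7.40 to 7.88 log2 CPM in ALP with a median of 7.60, from 6.54 to 7.36 in EILP with a median of 7.04, and was 7.34, 6.86, 6.72, 6.62 and 7.12 in ILCp. ALP lay above EILP and ILCp without overlap. It fell by 0.61 ± 0.17 from ALP to EILP (limma adjusted p = 0.04995) and by 0.66 ± 0.19 from ALP to ILCp (adjusted p = 0.0453). These calls were lost in 16 and 14 of the 19 fits without 1 library, with adjusted p up to 0.129 without EILP 1 and 0.162 without ILCp 2, and median centring of the libraries ended both. The other forms of subunit 7A were Cox7a2 at 7.28 and the muscle form Cox7a1 at −1.93 on average over all libraries, and neither passed.

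Cox5a, a subunit of the core's matrix side (chr9:57521274-57532426), ran from 6.90 to 7.58 log2 CPM in ALP with a median of 7.42, from 7.62 to 7.99 in EILP with a median of 7.90, and was 7.46, 7.10, 7.41, 7.11 and 7.18 in ILCp. EILP lay above both other groups without overlap. It rose by 0.49 ± 0.13 from ALP to EILP (limma adjusted p = 0.0392) and fell by 0.61 ± 0.15 from EILP to ILCp (adjusted p = 0.0427). The rise was lost in 7 of 19 fits without 1 library (adjusted p up to 0.111, without EILP 7) and the fall in 10 (up to 0.150, without ILCp 2). Cox4i1, the common form of subunit 4 (chr8:120668222-120674207), averaged 9.04 ± 0.27 in ALP, 8.92 ± 0.12 in EILP and 8.49 ± 0.17 in ILCp and fell by 0.55 ± 0.15 from ALP to ILCp (adjusted p = 0.0318), a call lost in 10 of 19 fits, up to 0.161 without ALP 4.

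Cox4i2, the lung form of subunit 4 (mean of −2.99 log2 CPM over all libraries, 7 libraries at a shared lowest value) and Ndufa4l2 (−4.78, 17 libraries at one) lay near the bottom of the scale. Ndufa4, first described in complex I and now placed in complex IV, averaged 8.76 ± 0.44 in ALP, 8.24 ± 0.21 in EILP and 7.99 ± 0.26 in ILCp, and its −0.77 ± 0.23 from ALP to ILCp missed the threshold (limma adjusted p = 0.0549). Over the 14 nuclear members of complex IV with a mean of at least 2 log2 CPM, the medians were 0.16, −0.45 and −0.32 from ALP to EILP, EILP to ILCp and ALP to ILCp, and all 14 were negative from EILP to ILCp.

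In ATP synthase 2 of the 3 genes of the c ring passed, Atp5g1 and Atp5g2. Atp5g1, Atp5g2 and Atp5g3 encode the same mature c subunit behind different import sequences. Atp5g1 (chr11:96068852-96075670) ran from 7.21 to 7.74 log2 CPM in ALP with a median of 7.60, from 7.84 to 8.35 in EILP with a median of 7.97, and was 7.30, 7.17, 7.25, 7.28 and 7.06 in ILCp. EILP lay above both other groups without overlap. It rose by 0.45 ± 0.12 from ALP to EILP (limma adjusted p = 0.0378) and fell by 0.81 ± 0.14 from EILP to ILCp (adjusted p = 0.00586). The fall held when any 1 library was left out, and the rise was lost in 6 of 19 such fits (0.35 and adjusted p = 0.110 without EILP 6).

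Atp5g2 (chr15:102662864-102672352) ran from 6.34 to 6.999 log2 CPM in ALP with a median of 6.59, from 6.64 to 6.93 in EILP with a median of 6.85, and was 6.13, 6.03, 5.61, 5.80 and 6.11 in ILCp. ILCp lay below all other libraries. It fell by 0.89 ± 0.18 from EILP to ILCp (limma adjusted p = 0.0159; 0.0627 without EILP 5) and by 0.70 ± 0.18 from ALP to ILCp (adjusted p = 0.0207; 0.0963 without ALP 4). It shares 38.3% of its windows with other annotated genes. Atp5g3, with a mean of 8.54 log2 CPM over all libraries, gave 0.23 ± 0.10 from ALP to EILP and −0.35 ± 0.12 from EILP to ILCp and did not pass (adjusted p = 0.237 and 0.135).

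The catalytic subunits Atp5a1 and Atp5b stayed near 0 in log2 fold change, at −0.05 ± 0.13 and −0.19 ± 0.10 from ALP to ILCp, and did not pass. All 15 nuclear ATP synthase members were nonetheless negative from EILP to ILCp and from ALP to ILCp, with medians of −0.39 and −0.25. Of the rows that are not subunits, Atp5s gave −1.38 ± 0.55 and Atp5sl −0.88 ± 0.35 from ALP to ILCp, neither past the threshold. The 3 pseudogene rows had means from −2.76 to −1.37 log2 CPM and did not pass.

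**Figure D3:**
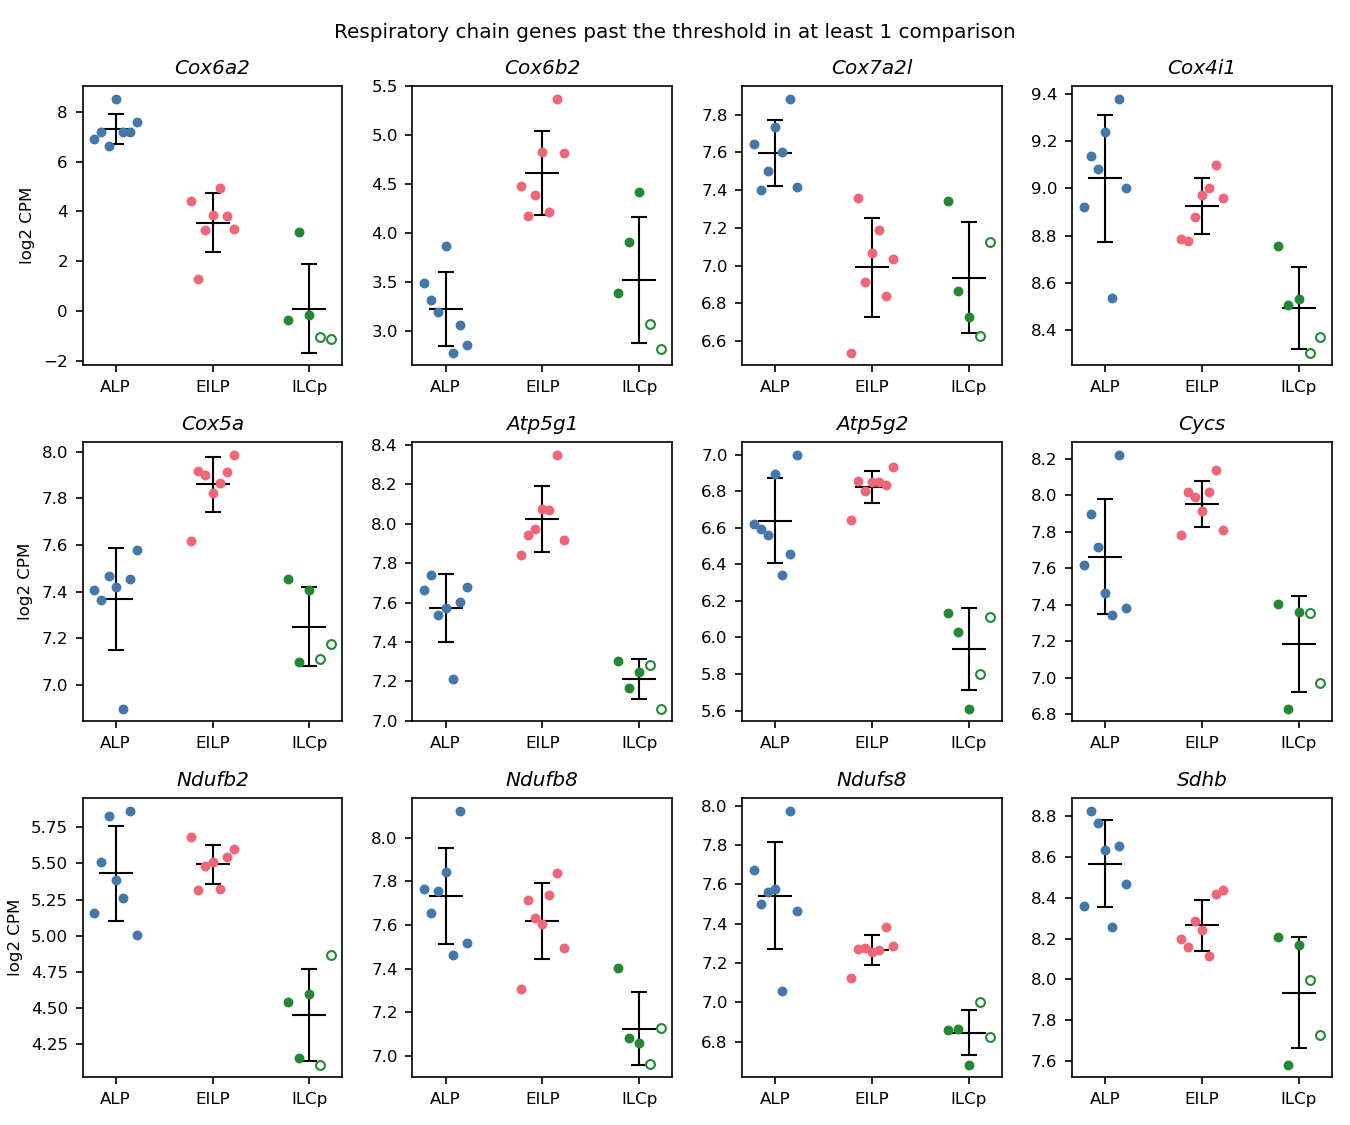
Level in log2 CPM (vertical axis, a different scale in each panel, not starting at 0) of the 12 members past the threshold in at least 1 comparison, for each library by group. Points are libraries (open: Plzf-cre-GFP/+), the bar is the mean and the whiskers are 1 SD; ILCp lies below both other groups for Ndufb2, Ndufs8 and Atp5g2, and EILP above both for Cox5a and Atp5g1.

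None of the 13 mitochondrial genes passed in any of the 3 comparisons (limma adjusted p), and at an unadjusted p under 0.05 there were 1, 1 and 0 of them. Of all genes, 5.05%, 3.21% and 8.24% passed, and 13 genes are too few to tell 0 calls from those shares. Calls were not compared between the genomes by a test. Together they held 5921 to 17031 CPM in ALP with a median of 8941, 7862 to 11691 in EILP with a median of 9734, and 7127 to 9088 in ILCp with a median of 8390. ALP held both the highest library (ALP 6) and the lowest (ALP 7), so the groups overlapped throughout. All mitochondrially encoded rows, ribosomal RNAs included, made up 1.54% ± 0.31 of CPM in ALP, 1.49% ± 0.22 in EILP and 1.30% ± 0.11 in ILCp (SD). The summed CPM of the nuclear members was 18211 ± 1717 in ALP, 18741 ± 1254 in EILP and 15230 ± 1154 in ILCp.

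The median log2 fold change of the 13 was 0.18 from ALP to EILP, −0.29 from EILP to ILCp and −0.11 from ALP to ILCp, against 0.15, −0.40 and −0.28 for the 80 nuclear members. Over the 10 mitochondrial genes past the minimum of 2 log2 CPM that the nuclear set uses, it was 0.05, −0.29 and −0.26. The gap between both medians in a library, mitochondrial minus nuclear, was −0.28 ± 0.20 in ALP, −0.33 ± 0.12 in EILP and −0.41 ± 0.17 in ILCp, so its group means differed by less than the SD of either group compared. mt-Nd1 averaged 10.34 ± 0.41 in ALP, 10.67 ± 0.25 in EILP and 10.53 ± 0.16 in ILCp. mt-Cytb averaged 11.27 ± 0.51, 11.22 ± 0.18 and 11.02 ± 0.10, with ALP 6 at 12.33, and mt-Co1 11.87 ± 0.49, 11.82 ± 0.22 and 11.57 ± 0.20. mt-Nd6, the only protein gene on the other strand of the mitochondrial genome, averaged 6.89 ± 0.37, 6.90 ± 0.28 and 6.45 ± 0.25. The library kits mark no strand, so its reads and those of transcripts opposite to it cannot be told apart.

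Levels among the mitochondrial genes were read beside how much of each sequence is also found in other annotated genes. The 4 genes mt-Nd1, mt-Cytb, mt-Nd6 and mt-Atp8 share no 50-letter window with another annotated gene. In mt-Co2, mt-Co3, mt-Atp6, mt-Nd3 and mt-Nd4l 98.0% to 100% of windows are shared with an annotated nuclear copy, in mt-Nd4 and mt-Co1 62.2% and 51.1% are shared, and in mt-Nd2 and mt-Nd5 8.19% and 7.61%. Low levels were not limited to genes with shared windows: mt-Atp8 stood at 4.23 log2 CPM per kb. However, mt-Atp8 (7766-7969) overlaps mt-Atp6 (7927-8607) on the same strand, over a stretch too short to fill a 50-letter window. Its level is therefore uncertain as well. The nuclear copies have rows of their own: Gm28437, the copy of mt-Co3, averaged 8.25 log2 CPM beside 6.85 for mt-Co3, and Gm10925, the copy of mt-Atp6, 7.09 beside 5.15. The low values of mt-Co2, mt-Co3, mt-Atp6, mt-Nd3 and mt-Nd4l are therefore uncertain, and levels are not ordered among them. With each gene summed with its copies, mt-Co3 averaged 8.81 ± 0.21 in ALP, 8.78 ± 0.18 in EILP and 8.50 ± 0.19 in ILCp. The median of the 13 then was 0.14, −0.26 and −0.24 in the 3 comparisons, and none of the 13 passed.

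**Figure D4:**
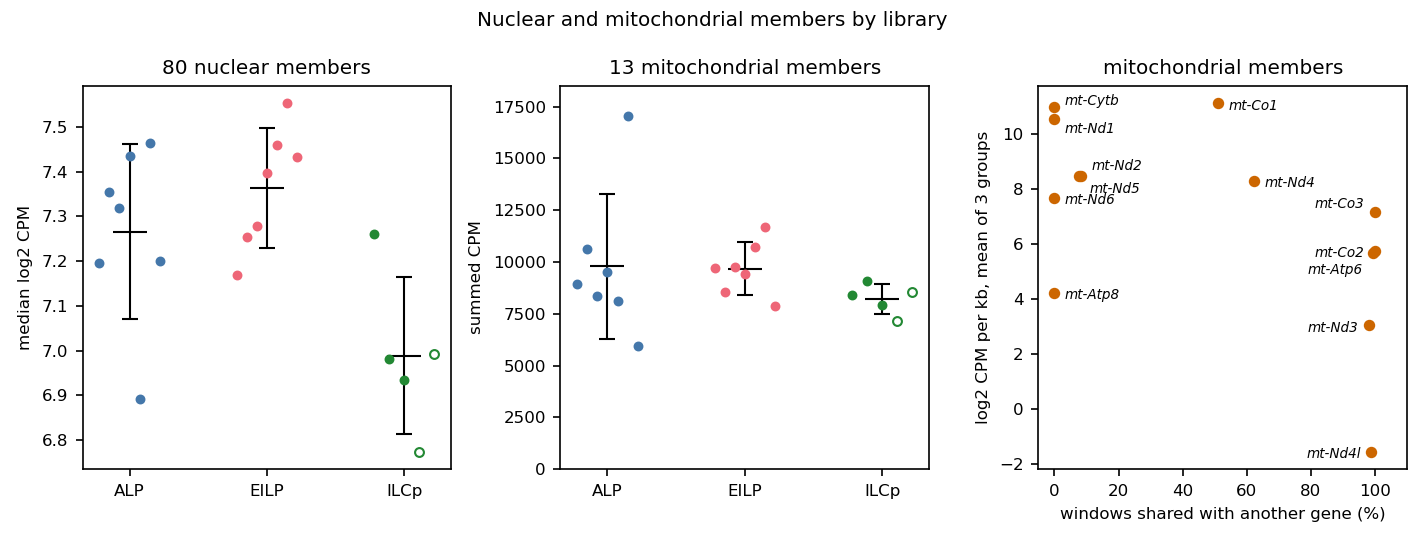
Left, median log2 CPM of the 80 nuclear members in each library by group; middle, summed CPM of the 13 mitochondrial members; bars are means, whiskers 1 SD and open points Plzf-cre-GFP/+. Right, level per kilobase of each mitochondrial gene against the share of its 50-letter windows found in another annotated gene: the 5 genes at 98.0% or more run from mt-Nd4l, the lowest of the 13, to mt-Co3, and mt-Atp8 is low at 0%.

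Genes that build or feed the chain were read from 4 lists. Of 43 assembly factors in the table, none passed from ALP to EILP (6 at an unadjusted p under 0.05), and 1, Uqcc2, a factor for complex III, fell from EILP to ILCp (−1.19 ± 0.27, limma adjusted p = 0.0267) and from ALP to ILCp (−1.08 ± 0.26, adjusted p = 0.0171). Of 34 genes for mitochondrial transcription, RNA handling and translation, none passed from ALP to EILP (5 unadjusted). Mtif3, an initiation factor of mitochondrial translation, fell from EILP to ILCp (−1.82 ± 0.47, adjusted p = 0.0457), and Ssbp1, the single-strand DNA binding protein (−0.71 ± 0.19, adjusted p = 0.0288), and Slirp, which binds mitochondrial RNA (−1.20 ± 0.34, adjusted p = 0.0373), fell from ALP to ILCp.

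Of 12 nuclear regulators, Myc fell from ALP to EILP (−0.72 ± 0.19, limma adjusted p = 0.0328) and from ALP to ILCp (−1.17 ± 0.21, adjusted p = 0.00236), and Gabpb1, the partner of GABPA, fell from ALP to ILCp (−0.91 ± 0.23, adjusted p = 0.0239). None of the 12 passed from EILP to ILCp (0 unadjusted). Of 16 genes of the citric acid cycle and pyruvate dehydrogenase, Mdh2 and Cs rose from ALP to EILP (0.45 ± 0.08 and 0.54 ± 0.15, adjusted p = 0.00184 and 0.0453). Cs makes citrate and Mdh2 makes the oxaloacetate for it. Suclg1, of succinyl-CoA ligase, fell from EILP to ILCp (−0.76 ± 0.15, adjusted p = 0.0104) and from ALP to ILCp (−0.65 ± 0.14, adjusted p = 0.00814), and the fumarase gene Fh1 fell from ALP to ILCp (−0.57 ± 0.16, adjusted p = 0.0334). Medians of these lists from EILP to ILCp, taken with no minimum level, were −0.21, −0.37, −0.0031 and −0.16 in the order given. The median of all 18607 genes was −0.078. The shares of list members that fell from ALP to ILCp were 2.33%, 5.88%, 16.7% and 12.5%, beside 4.39% of all genes. For the step from EILP to ILCp they were 2.33%, 2.94%, 0% and 6.25%, beside 1.46%. For ALP to EILP, 8.33% of the regulators fell beside 2.79%, and 12.5% of the citric acid cycle genes rose beside 2.25%. A share here rests on 0 to 2 genes.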

How the data were processed

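RNA was extracted with an RNeasy plus micro kit and made into libraries with the SMARTer Ultra Low kit and Nextera XT, per the labels' protocols. The submitters' processing notes name limma, edgeR, STAR 2.4.0h, bcl2fastq 1.8.4 and the build mm10, with no role or order. How reads were counted, and on which annotation, is not given in the sources used here. For 18607 genes the authors deposited log2 CPM. The deposited values hold no batch differences beside the groups (largest batch coefficient 1.84e-08 log2), so the authors' values were already cleared of batch, and neither counts nor depth can be read from this table.

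Differences were fitted with limma 3.58.1 (R 4.3.3) over all 19 libraries, with group and batch as terms and a mean-variance trend, two-sided, with Benjamini-Hochberg adjustment over all genes. Batch was kept as a term so that the error allows for what was removed. The script was tested on simulated data. Medians use members with a mean of at least 2 log2 CPM, and for the mitochondrial genome all 13. Positions, exon lengths and 50-letter windows are from GENCODE M21 (GRCm38), promoters from RefSeq. Named were members past the threshold, the mitochondrial genes, the smallest p per complex, isoform groups, members at the zero level, and up to 2 rising and 2 falling genes per list. Members and lists were chosen with earlier results of these data known. Alternatives changed batch handling, libraries, scaling, filter and variance model. Those without ALP 7 and EILP 2 together, without batch 3, without batch 4, and with mitochondrial genes summed with their nuclear copies were chosen after seeing the data.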

Additional observations from a re-analysis of the deposited data

Results flagged for a closer look

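Single libraries stood far from the rest of their group, by Dixon's test at its 95% critical value, in 14 of 138 groups of values tested. Chance flags about 1 in 20 of independent groups. Removal of batch links the libraries of a batch, and members move together, so that rate is only a rough guide here. ALP 5 lay below the other ALP libraries for Atp5g1 (7.21 log2 CPM, next 7.54), Cox5a (6.90, next 7.36) and Cox6a1 (7.53, next 7.995), and ALP 6 lay above them for mt-Co2 (6.10, next 5.47), mt-Cytb (12.33, next 11.33) and the summed CPM of the 13 mitochondrial genes (17030, next 10640). ILCp 2 was high for Cox6a2 (3.18, next −0.15), and ILCp 1 for Ndufa4 (8.44, next 7.95). ILCp 4 was low for mt-Co3 (6.15, next 6.61) and for the median of the mitochondrial members (6.18, next 6.65) and high for mt-Nd4l (−2.06, next −3.45). EILP 1 was low for Ndufa4 (7.82, next 8.21), EILP 2 for Atp5sl (3.94, next 4.91) and EILP 7 for mt-Nd1 (10.14, next 10.62).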

How the results depend on the processing

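The counts of members past the threshold moved with the setting, and no called value changed sign. The share of all genes that passed was not computed for these settings. The counts below therefore cannot be read as a result about the members apart from other genes. From ALP to EILP the count of 5 became 12 with no batch term, 14 with batch as a random effect, 3 with only the groups compared, 2 with only batches holding both groups, 2 in batch 5 alone, 2 at a fold of at least 2, 3 without the mean-variance trend, 2 on dropping both ALP 7 and EILP 2, 2 without batch 4 and 1 to 5 with 1 library left out. From EILP to ILCp the count of 6 became 38 with no batch term, 74 with a random batch, 0 with only the groups compared (36 at an unadjusted p under 0.05) or only batches holding both (29), 3 without the Plzf-cre-GFP/+ libraries, 2 at a fold of at least 2, 11 with only genes of at least 2 log2 CPM tested, 0 without the trend (25 unadjusted), 3 on dropping both ALP 7 and EILP 2, 0 without batch 4 (14 unadjusted) and 1 to 8 with 1 library left out. From ALP to ILCp the count of 8 became 26 with no batch term, 74 with a random batch, 1 with only the groups compared, 3 with only batches holding both, 4 without the Plzf-cre-GFP/+ libraries, 1 at a fold of at least 2, 2 without the trend, 1 without batch 4 and 2 to 11 with 1 library left out. With fewer libraries fewer degrees of freedom remain. Batch was already removed from the values, so fits with no batch term or a random batch leave that removal out of the error. Their higher counts are therefore not alternatives to the main counts. For the other settings the cause was not tested. Quantile normalization and median centring split the 5 calls from ALP to EILP as 4 higher and 1 lower in place of 3 and 2. Since the deposited values already hold ties between libraries of a batch, quantile normalization may repeat an earlier step.

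With the replicate number as a block in place of batch, 9, 17 and 12 members passed, also without allowance for the removed batches. Over 17 pairs with the same number, the correlation of deviations from the group mean ran from −0.64 to 0.12. Of 19 libraries, 1 correlated best with its own number. Removal of batch makes the deviations within a batch cancel out, which pushes libraries of the same batch toward negative correlation. Whether the numbers pair libraries therefore cannot be read from these values.

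The medians kept their sign in all settings. With 1 library left out, the nuclear medians ran from 0.07 to 0.21, −0.49 to −0.34 and −0.38 to −0.18 in the 3 comparisons, and the mitochondrial ones from 0.12 to 0.26, −0.40 to −0.23 and −0.27 to −0.02. Unknown depth leaves low members, such as Cox4i2, Cox7a1 and Ndufa4l2, without an error of their own.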
